A study of Mus musculus with 6 samples.

Results

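RNA of 9 genes of bone morphogenetic protein (BMP) signalling was read in RNA sequencing of an immortalized mouse line of cardiosphere-derived cells. The libraries hold RNA only, so signalling itself and the proteins were not measured in them. The labels call the line iCDC and give heart ventricle as its tissue, and the study calls it iECDC and derives it from epicardium. The 9 genes were chosen by name from the 54532 genes of the deposited table. They comprise 4 ligands (Bmp2, Bmp4, Bmp6 and Bmp7), 2 secreted antagonists (Grem1 and Nog) and 3 target genes (Id1, Id2 and Id3). The cells came from C57BL/6 mice aged 6 weeks and carried a lentiviral human telomerase gene (hTERT) under a CMV promoter, with puromycin selection, and both groups shared this background. Whether the line is 1 clone is not given in the sources used here. Cells at passage 30 gave the 3 control libraries, and the medium and time in culture of these sequenced cells are not given in the sources used here. For routine passage the study kept the line in IMDM with far more serum than the induced cells received. For the 3 induced libraries, passage 30 cells were exposed for 3 days to 10 µM 5-azacytidine, a cytidine analogue that blocks the copying of DNA methylation and serves here as a cardiac inducer. According to the labels these cells then stayed for 4 weeks in IMDM with 2% serum, while the methods of the study name another medium and another duration. No group had the later culture without the drug, so drug, serum and time in culture cannot be told apart.

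BMPs are secreted dimers of the TGF-β superfamily. They bind pairs of type I and type II serine/threonine kinase receptors, which phosphorylate SMAD1, SMAD5 and SMAD9, and these enter the nucleus with SMAD4 and switch on genes such as the Id family and the inhibitory SMADs. Gremlin 1 and noggin bind BMPs outside the cell and keep them from their receptors. ID proteins are helix-loop-helix proteins without a DNA-binding region, and they hold E proteins away from DNA. In the heart, BMPs act in the formation of cardiac mesoderm, valves and epicardium.

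Libraries held 19041133 to 19823369 counted reads, and 14246 genes had enough reads to be tested. Of the markers of cardiosphere and mesenchymal cells, 7 of 7 were detected in every library. They summed to 11520 to 12540 CPM (the usual depth-scaled read count, here with TMM scaling factors), mostly Col1a1 and Col3a1. Of these 7 genes, 3 were higher and 4 were lower in induced libraries, with log2 fold changes from -0.73 (Pdgfra) to 0.70 (Col3a1). The 6 epicardial markers summed to 403 to 416 CPM in control and 1242 to 1391 CPM in induced libraries, mostly Upk3b. Of these 6 genes, 4 were higher and 2 were lower, the latter being Krt19 (log2 fold change -1.24, edgeR adjusted p 2.74e-07) and Tbx18 (-0.33, edgeR adjusted p 0.000429). Of 7 endothelial markers, 6 did not have enough reads to be tested, Tie1 was at 0 in all libraries and the list stayed at 1.21 to 2.30 CPM. Of 8 leukocyte markers, 6 were at 0 in all libraries, Ptprc among them, and the sum of 0 to 0.101 CPM in control and 3.09 to 3.66 CPM in induced libraries was nearly all Fcer1g. The 8 cardiomyocyte markers summed to 13.0 to 16.1 CPM in control and 59.1 to 62.7 CPM in induced libraries, nearly all of it Tnnt2, while Myh6 had 0 reads in control and 1 in induced libraries. The osteoblast and cartilage list, 7 genes of tissues that BMPs help to form, summed to 28.4 to 29.9 CPM in control and 7.54 to 9.35 CPM in induced libraries. Nearly all of this was Sox9 and Alpl, and the other 5 did not have enough reads to be tested.

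The comparison asked how the genes of the pathway responded to induction. The tested ligands and targets rose, and the more abundant antagonist fell. Bmp4, Bmp6 and Id1 were 3.13-fold, 3.11-fold and 3.34-fold higher in induced cells, and Bmp2, Id2 and Id3 were 1.91-fold, 1.75-fold and 1.91-fold higher. Grem1 was 3.69-fold lower. Nog and Bmp7 were at or near 0 reads and were not tested.

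Of the 9 genes 7 could be tested, and all 7 passed an adjusted p of 0.05 (edgeR's quasi-likelihood test, Benjamini-Hochberg over all tested genes). Of these, 6 were higher and 1 was lower. Among all tested genes 64.8% passed, 32.6% higher and 32.2% lower, so passing this threshold was common in these data. Of the 7, 4 changed 2-fold or more, as did 17.1% of all tested genes: Bmp4, Bmp6 and Id1 among the 9.29% that were higher, and Grem1 among the 7.83% that were lower. The groups did not overlap for any of the 7, which held for 68.6% of all tested genes. The median log2 fold change was 0.93 over the 7 and -0.01 over all tested genes. The 7 genes had at least 53 reads in every library, so none of them passed the filter on low counts through one group alone. In the ranking of log2 fold changes over all tested genes, Grem1 stood at percentile 2.4 and the other 6 genes stood at percentile 87.9 (Id2) or above. RNA was taken from whole cultures, where fewer cells of a type and less RNA per cell cannot be told apart.

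**Figure D1:**
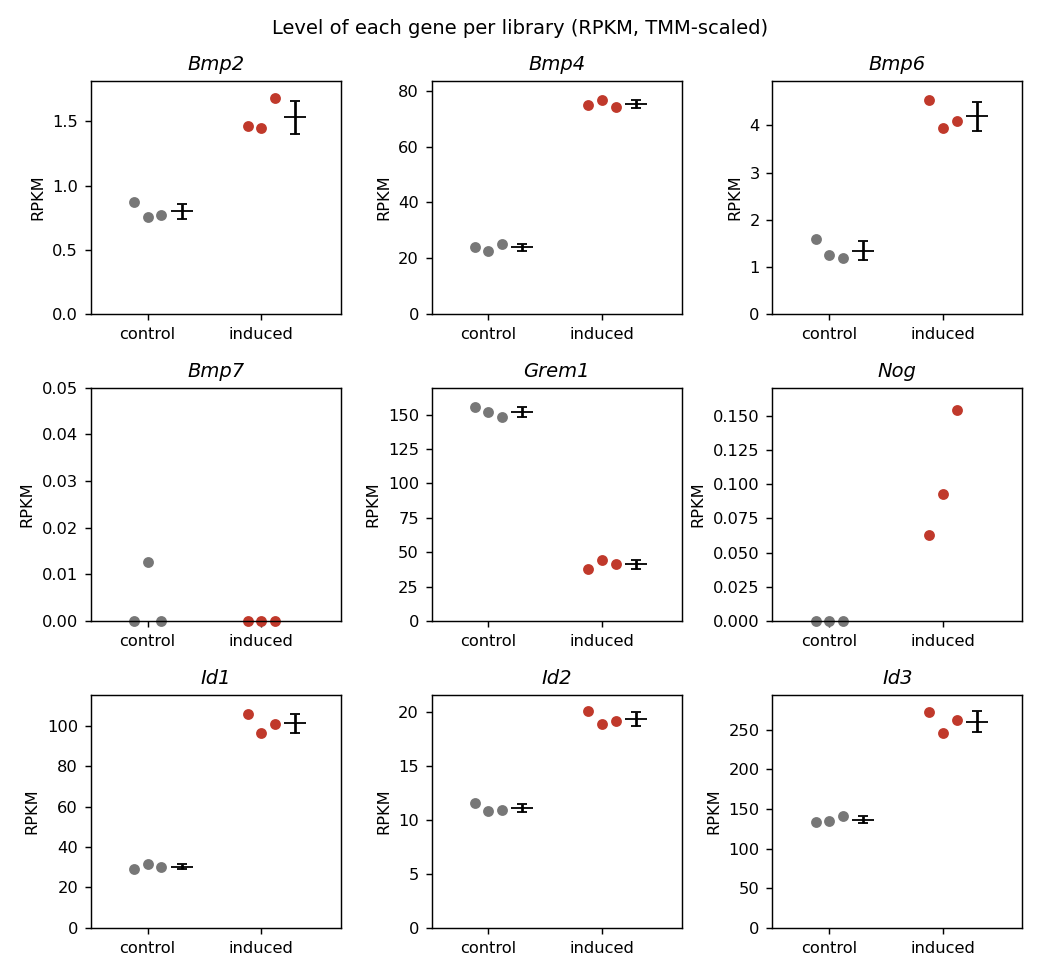
Level of each of the 9 genes in each library, in RPKM (reads per kilobase of gene and per unit of library depth, TMM-scaled), on axes that start at 0. Points are libraries (3 control, 3 induced) and the black marks beside the tested genes give mean and SD. Bmp2, Bmp4, Bmp6, Id1, Id2 and Id3 are higher in all 3 induced libraries, Grem1 is lower in all 3, and Bmp7 and Nog reach at most 0.154 RPKM.

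**Figure D2:**
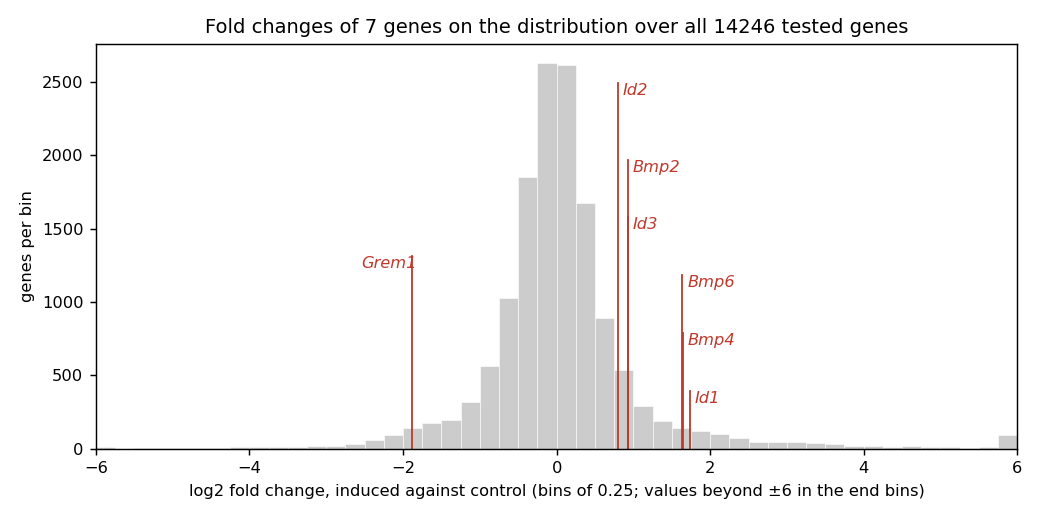
Log2 fold changes of the 7 tested genes (red lines, whose heights only separate the names) on the distribution over all 14246 tested genes (grey bars, genes per bin of 0.25). Grem1 lies in the lower tail at -1.88, and the other 6 genes lie between 0.80 and 1.74 on the higher side.

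Bmp4 (ENSMUSG00000021835, chromosome 14, 46383520 to 46390669, minus strand), a ligand of mesoderm and heart formation, was the most abundant of the 4 BMP genes. It had 53.9, 51.3 and 56.75 CPM in the control libraries and 168.7, 172.5 and 166.4 CPM in the induced libraries. The induced libraries lay close together and all far above the control libraries. The log2 fold change was 1.65 (SE 0.05, edgeR adjusted p 9.61e-15), with means of 54.0 ± 2.74 and 169 ± 3.12 CPM (SD, n = 3 libraries per group). Of its exon bases, 4.0% are shared with the gene Gm15217 on the opposite strand, and the strand setting of the counting is not given in the sources used here.

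Bmp6 (ENSMUSG00000039004, chromosome 13, 38345107 to 38500302, plus strand), a ligand known for its part in iron regulation and bone, was measured at 6.18, 4.94 and 4.65 CPM in control and 17.7, 15.4 and 16.0 CPM in induced libraries. Its groups were also clearly apart, with control replicate 1 the highest of the controls. The log2 fold change was 1.64 (SE 0.12, edgeR adjusted p 1.16e-09). Exon bases of Bmp6 overlap Txndc5 on the opposite strand for 5.7% of their length.

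Bmp2 (ENSMUSG00000027358, chromosome 2, 133552159 to 133562885, plus strand), a close relative of Bmp4, was scarce, with 61, 53 and 55 reads in control and 98, 98 and 114 reads in induced libraries. Scaled to depth this was 2.85 ± 0.211 and 5.44 ± 0.458 CPM (SD, n = 3). All induced libraries were above all control libraries, and the log2 fold change was 0.93 (SE 0.17, edgeR adjusted p 7.58e-05), the least precise among the 7 tested genes. Bmp7 (ENSMUSG00000008999, chromosome 2, 172868012 to 172940321, minus strand), a ligand of kidney and eye development, had 1 read in control replicate 2 and 0 reads in the other 5 libraries. A count of 0 in 1 library allows up to 0.151 to 0.158 CPM, taking 3 counts as the limit. No difference in Bmp7 could be detected with so few reads. Such limits cover counting error only.

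On the length-corrected scale, the 4 ligands summed to 26.4, 24.9 and 27.2 RPKM in control and to 81.0, 82.2 and 79.8 RPKM in induced libraries. Bmp4 made up 91.8% ± 1.03 of this sum in control and 92.9% ± 0.442 in induced cells (SD, n = 3). The sum was therefore mostly the level of Bmp4 in both groups.

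From a list of 10 other ligands of the family, 2 had enough reads to be tested. Bmp3, a BMP that acts against other BMPs in bone, went from 0.319 ± 0.144 to 20.2 ± 2.25 CPM (SD, n = 3), with 8, 3 and 8 reads in control and 347, 432 and 370 reads in induced libraries. It passed the filter on low counts only through the induced group, and its log2 fold change moved with the scale, from 5.95 in edgeR to 1.83 on log2(FPKM + 1). Gdf6, a ligand of joint and eye development, went from 28.9 ± 1.26 to 97.4 ± 2.47 CPM (SD, n = 3), a rise of 1.75 on the log2 scale (SE 0.06, edgeR adjusted p 6.72e-15). The remaining 8 (Bmp5, Bmp8a, Bmp8b, Bmp10, Bmp15, Gdf2, Gdf5 and Gdf7) had 18 reads in control and 23 in induced libraries in all.

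Grem1 (ENSMUSG00000074934, chromosome 2, 113746164 to 113758646, minus strand), the antagonist gremlin 1 that binds BMP2, BMP4 and BMP7, was abundant in control cells. Its level was 645, 631 and 614 CPM in control and 157, 184 and 172 CPM in induced libraries. Every induced library was below every control library by a wide margin. The log2 fold change was -1.88 (SE 0.05, edgeR adjusted p 1.83e-15). By RPKM, Grem1 stood at percentile 97.8 of the tested genes in control cells and at percentile 90.7 in induced cells, so it remained well expressed. Annotation shows no exon base of Grem1 shared with another gene.

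Nog (ENSMUSG00000048616, chromosome 11, 89300638 to 89302332, minus strand), the antagonist noggin, had 0 reads in the 3 control libraries and 2, 3 and 5 reads in the induced libraries. Against a limit of 3 counts over the control group this is a ratio of 3.39, which leaves out the counting error of the induced reads. It did not pass the filter on low counts and therefore has no main test. Without that filter its edgeR adjusted p was 0.0171, and DESeq2 gave 0.0495, both resting on 10 reads.

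The order of Grem1 and Bmp4 RNA turned over on the length-corrected scale, which holds for this pair and not for antagonists and ligands at large. The ratio of Grem1 to Bmp4 in counts per length was 6.48, 6.67 and 5.87 in control and 0.504, 0.577 and 0.560 in induced libraries. Grem1 thus exceeded Bmp4 in every control library and was below it in every induced library. The log2 ratio differed by -3.54 (SE 0.08), an 11.6-fold change in the ratio. In a two-sided exact permutation test over libraries p was 0.10, the smallest that 3 libraries against 3 allow, and also 0.10 after adjustment over the 4 ratios compared.

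Of 15 other antagonists, 11 were tested: 7 were higher, 2 were lower and 2 did not pass. Of the 7, Chrdl1 and Vwc2 had under 10 reads in every control library and were tested only because of the induced group. Bmper, an extracellular BMP-binding protein that can restrain or promote signalling, stood at 137.7 ± 2.94 CPM before and 26.8 ± 2.53 CPM after induction (SD, n = 3), with a log2 fold change of -2.36 (SE 0.07, edgeR adjusted p 1.05e-15). It fell, as Grem1 did, and Fst, the activin and BMP binder follistatin, fell less (log2 fold change -0.37, SE 0.11, edgeR adjusted p 0.00524). Fstl1 (log2 fold change 0.08, edgeR adjusted p 0.113) and Dand5 (-0.15, edgeR adjusted p 0.496) did not pass. Of those that rose, Crim1, a membrane protein that tethers BMPs, and Nbl1, a relative of gremlin, rose by 0.98 (SE 0.06) and 1.02 (SE 0.07) on the log2 scale, with edgeR adjusted p 3.20e-11 and 1.40e-10. Chrd, which encodes chordin, rose from 9.92 ± 1.12 to 19.03 ± 0.838 CPM, and Twsg1 rose from 142 ± 1.63 to 228 ± 15.6 CPM (SD, n = 3). Fstl3 also rose, but 47.3% of its exon bases overlap Prss57 on the opposite strand. Chrdl1 had 13 reads in control and 91 in induced libraries. Vwc2 had 1 read in control and 40 in induced libraries, a ratio of 40.6 with a 95% exact binomial interval of 6.89 to 1644. The interval rests on reads summed over each group and covers counting error only, not the spread between libraries. Sostdc1 was not tested and had 0 reads in control and 28 reads in induced libraries. Against a limit of 3 counts over the control group this is a ratio of 9.48, again without the counting error of the induced reads. Sost had 8 and 7 reads, and Cer1 had 0 in all libraries. Antagonists as a group therefore did not move in one direction. The sum of the 15 was 933.5 to 953.8 CPM in control and 1116 to 1173 CPM in induced libraries. This sum leaves out Grem1, which fell from a mean of 630.1 to 170.8 CPM. The largest part of the sum was Fstl1 (means of 448.5 and 475.4 CPM), which did not pass.

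**Figure D3:**
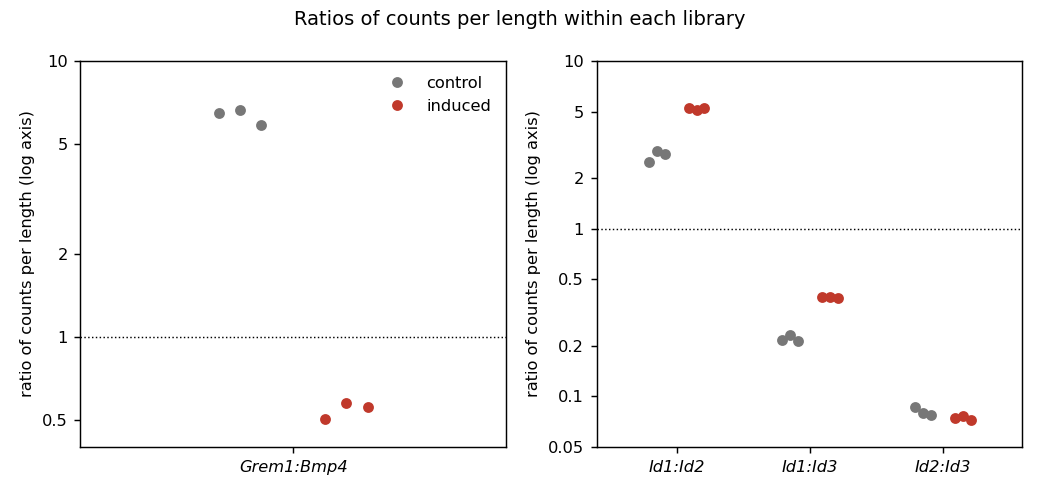
Ratios of counts per length between pairs of genes within each library, on log axes, with the dotted line at a ratio of 1 (grey, 3 control libraries; red, 3 induced libraries). The ratio of Grem1 to Bmp4 lies between 5.87 and 6.67 in control and between 0.504 and 0.577 in induced libraries, and Id1 is higher against both Id2 and Id3 in all induced libraries.

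The 3 Id genes rose, but not by the same amount. Id1 (ENSMUSG00000042745, chromosome 2, 152736251 to 152737410, plus strand), often used as a readout of BMP signalling, had 33.7, 36.55 and 35.2 CPM in control and 123, 112 and 117 CPM in induced libraries. All induced libraries lay far above all control libraries. This was a log2 fold change of 1.74 (SE 0.06, edgeR adjusted p 1.19e-14), with means of 35.2 ± 1.42 and 117 ± 5.48 CPM (SD, n = 3).

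Id3 (ENSMUSG00000007872, chromosome 4, 136143497 to 136145755, plus strand), which acts in lymphocyte and vascular development, had 238.2, 242.5 and 252.8 CPM in control and 487, 441 and 471 CPM in induced libraries. Control libraries were all below the lowest induced library. The log2 fold change was 0.93 (SE 0.05, edgeR adjusted p 7.43e-12). Id2 (ENSMUSG00000020644, chromosome 12, 25093799 to 25097140, minus strand), known for its part in innate lymphoid cells, had 28.2, 26.4 and 26.5 CPM in control and 49.0, 45.9 and 46.7 CPM in induced libraries. It showed the smallest change of the 3, with a log2 fold change of 0.80 (SE 0.06, edgeR adjusted p 1.92e-09). None of the exon bases of Id1, Id2 or Id3 are shared with another gene.

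Ratios within a library, which do not depend on scaling between libraries, were used to compare the 3 genes. The ratio of Id1 to Id2 in counts per length was 2.74 ± 0.202 in control and 5.22 ± 0.0857 in induced cells (SD, n = 3), a log2 difference of 0.94 (SE 0.06). The ratio of Id1 to Id3 was 0.222 ± 0.00944 and 0.389 ± 0.00423 (SD, n = 3), a log2 difference of 0.81 (SE 0.04). Relative to both others, Id1 was thus higher in every induced library than in any control library. The ratio of Id2 to Id3 was 0.0814 ± 0.00506 and 0.0744 ± 0.00191 (SD, n = 3), a log2 difference of -0.13 (SE 0.06), and the nearest libraries of the groups, at 0.0771 and 0.0766, were close. In all 3 pairs the groups did not overlap, and the two-sided exact permutation p was 0.10 before and after adjustment, the smallest possible here.

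By length-corrected level, Id3 was the leading Id gene in both groups, with 76.7% ± 0.620 of the summed RPKM of the 3 genes in control and 68.3% ± 0.283 in induced cells (SD, n = 3). The sum rose from 178 ± 4.34 to 381 ± 18.3 RPKM. Among all 9 genes, the order of RPKM in control cells was Grem1 (152 ± 3.67), Id3 (136.5 ± 4.17), Id1 (30.3 ± 1.22), Bmp4 (24.0 ± 1.22), Id2 (11.1 ± 0.409), Bmp6 (1.35 ± 0.2075) and Bmp2 (0.801 ± 0.0594). In induced cells it was Id3 (260.2 ± 13.0), Id1 (101 ± 4.72), Bmp4 (75.3 ± 1.39), Grem1 (41.2 ± 3.24), Id2 (19.4 ± 0.661), Bmp6 (4.19 ± 0.305) and Bmp2 (1.53 ± 0.129). Neighbours in both orders did not overlap between libraries. Grem1 moved from the first place to the fourth.

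The promoter windows below are shown because Id2 and Id3 rose together while Grem1 fell, and because the drug given acts on methylation of CpG sites. Windows were taken from RefSeq (GRCm38.p6), from 250 bases before to 50 after the start of the gene, and 5 of the 9 genes had one (Id2, Id3, Bmp4, Bmp6 and Grem1), as against Id1, Bmp2, Bmp7 and Nog. For Id2, Id3 and Bmp6 the RefSeq start lies inside the span given above. Capitals mark GGCGCC and GGAGCC, GC-rich elements of the kind that BMP SMADs bind, and GTCTG, a SMAD-binding element, each searched on both strands, and no marked elements overlap. The Id2 window is chr12:25096043-25096342 on the minus strand, the Id3 window is chr4:136143572-136143871 on the plus strand, and the Grem1 window is chr2:113758599-113758898 on the minus strand.
Id2: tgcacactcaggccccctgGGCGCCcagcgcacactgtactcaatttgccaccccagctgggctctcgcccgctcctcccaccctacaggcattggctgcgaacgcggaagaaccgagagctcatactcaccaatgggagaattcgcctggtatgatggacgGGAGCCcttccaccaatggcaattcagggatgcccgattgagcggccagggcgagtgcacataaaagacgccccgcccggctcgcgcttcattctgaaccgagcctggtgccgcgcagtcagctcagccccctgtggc
Id3: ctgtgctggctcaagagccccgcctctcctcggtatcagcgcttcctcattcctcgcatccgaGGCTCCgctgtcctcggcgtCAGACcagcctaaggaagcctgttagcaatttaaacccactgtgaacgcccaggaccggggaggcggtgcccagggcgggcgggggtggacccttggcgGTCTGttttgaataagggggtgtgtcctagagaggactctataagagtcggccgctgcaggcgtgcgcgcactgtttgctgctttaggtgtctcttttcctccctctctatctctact
Grem1: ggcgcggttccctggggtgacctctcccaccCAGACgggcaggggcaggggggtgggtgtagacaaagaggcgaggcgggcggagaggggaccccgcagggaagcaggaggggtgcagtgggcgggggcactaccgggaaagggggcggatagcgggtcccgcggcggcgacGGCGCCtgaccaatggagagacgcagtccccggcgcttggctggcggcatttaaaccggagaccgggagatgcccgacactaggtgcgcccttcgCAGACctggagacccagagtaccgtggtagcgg

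GGCGCC occurred once in the Id2 and once in the Grem1 window, and in 11.9% of all 32851 windows. GGAGCC occurred once in the windows of Id2, Id3 and Bmp4, and in 30.8% of all windows. GTCTG was found at 2 places each for Id3 and Grem1 and at 1 for Bmp6, and in 49.6% of all windows. The E-box letters CANNTG, which E proteins bind, had 3 matches in the Bmp4 window, 2 in that of Bmp6, 1 in that of Id2 and 0 in those of Id3 and Grem1, and were in 72.3% of all windows. Each marked element of the Grem1 window was also present in the window of Id2 or Id3. CpG sites numbered 28 for Grem1, 27 for Bmp6, 21 for Id2, 19 for Id3 and 12 for Bmp4, where the median of all windows was 7. By count these windows were thus richer in CpG than most, at percentiles 62.1 to 87.1, for Grem1 as for Id2, Id3, Bmp4 and Bmp6. Id1 and Bmp2, which also rose, had no window. Relative to the number expected from C and G content, CpG was 0.79 for Grem1, 0.75 for Bmp6, 0.71 for Id2 and 0.7 for Id3. Bmp4 was at 0.42 by this ratio, near the median of 0.38 over all windows. Whether CpG content bears on the direction of change was not tested. Methylation itself was not measured.

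The partners of ID proteins and the receptors were read from lists of other pathway genes. Of the 3 E protein genes, Tcf3 fell from 166 ± 5.23 to 77.3 ± 5.08 CPM (SD, n = 3), 2.14-fold lower (edgeR adjusted p 5.13e-12). Tcf12 had a log2 fold change of -0.14 (edgeR adjusted p 0.0505) and Tcf4 of 0.01 (edgeR adjusted p 0.917), and neither passed. Without induced replicate 2, Tcf12 passed at -0.22 (edgeR adjusted p 0.000207), and Tcf4 was at -0.05; without control replicate 2, Tcf4 was at -0.04.

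Of 7 receptors, 4 were higher, 1 was lower and 2 did not pass. Bmpr1a, the main type I receptor for BMP2 and BMP4, went from 131 ± 4.60 to 288.2 ± 19.84 CPM (SD, n = 3), which is 1.14 on the log2 scale (SE 0.05, edgeR adjusted p 2.16e-12). The type II receptors Bmpr2 and Acvr2a rose by 0.43 (SE 0.07) and 0.58 (SE 0.11) on the log2 scale, and Acvrl1 rose by 0.39 (SE 0.09). Bmpr1b, the gene that was lower, had 60 reads in control and 16 in induced libraries, and was tested only because of the control group. Acvr1, with 45.3 ± 1.89 and 46.9 ± 1.78 CPM, and Acvr2b, with 4.33 ± 0.267 and 3.28 ± 0.790 CPM (SD, n = 3), did not pass (edgeR adjusted p 0.451 and 0.0717).

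Of 6 co-receptors, 5 were tested, 4 higher and 1 lower, all by less than 2-fold. Bambi, a decoy receptor that BMP signalling also induces, and the BMP co-receptor Rgmb rose by 0.58 (SE 0.09) and 0.44 (SE 0.07) on the log2 scale. Tgfbr3, or betaglycan, had a log2 fold change of -0.31 (SE 0.05), and Hjv, listed under its older symbol Hfe2, had 24 and 27 reads.

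The inhibitory SMADs showed changes of the size of that of Id1. Smad6, which blocks the BMP branch, had 33.3 ± 1.90 CPM in control and 111 ± 5.12 CPM in induced libraries (SD, n = 3), with a log2 fold change of 1.73 (SE 0.06, edgeR adjusted p 1.98e-14). Smad7, which blocks the TGF-β and BMP branches, had a log2 fold change of 1.59 (SE 0.06, edgeR adjusted p 7.83e-14). The SMADs that carry the signal were mixed. Smad9 rose from 12.4 ± 0.865 to 26.6 ± 2.23 CPM (SD, n = 3), while Smad1 and Smad5 fell by 0.70 (SE 0.06) and 0.34 (SE 0.06) on the log2 scale. Smad4 stood at 89.4 ± 0.528 and 89.6 ± 3.41 CPM (SD, n = 3; edgeR adjusted p 0.964). Over the 10 SMADs and SMAD regulators, 6 were higher, 3 were lower and 1 did not pass. Skil, a SMAD repressor that TGF-β induces, was among the 4 that rose at least 2-fold (27.3 ± 3.83 to 58.7 ± 6.32 CPM, SD, n = 3).

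Of 12 other targets, 6 were tested, 4 higher, 1 lower and 1 not passing. Gata4, a cardiac transcription factor, rose by 0.59 (SE 0.04), and Atoh8, a factor that responds to BMP in several tissues, by 0.49 (SE 0.06) on the log2 scale. Runx2, the leading transcription factor of bone cells, fell from 29.7 ± 3.09 to 14.2 ± 1.53 CPM (SD, n = 3), a difference of -1.07 on the log2 scale (SE 0.10, edgeR adjusted p 1.46e-08). Of its exon bases 5.9% are shared with Runx2os1 on the opposite strand. Id4, the fourth Id gene, had 59 reads in control and 67 in induced libraries (edgeR adjusted p 0.525). Hey1 was not tested and had 3 and 41 reads, a ratio of 13.9 with a 95% exact binomial interval of 4.43 to 70.1. This interval, too, rests on summed reads and covers counting error only. Msx2 and Dlx5 had 0 reads in all libraries.

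Over the 63 other pathway genes, 44 were tested, 27 were higher and 9 were lower, with a median log2 fold change of 0.39. Of the 44, 4 (Bmp3, Chrdl1, Vwc2 and Bmpr1b) had enough reads in 1 group only. Passing the filter in this way favours genes that differ between the groups. Over all tested genes the median was -0.01, and 32.6% passed higher and 32.2% passed lower. The counts of each list above are to be read beside these shares. The lists hold genes of opposite function.

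**Figure D4:**
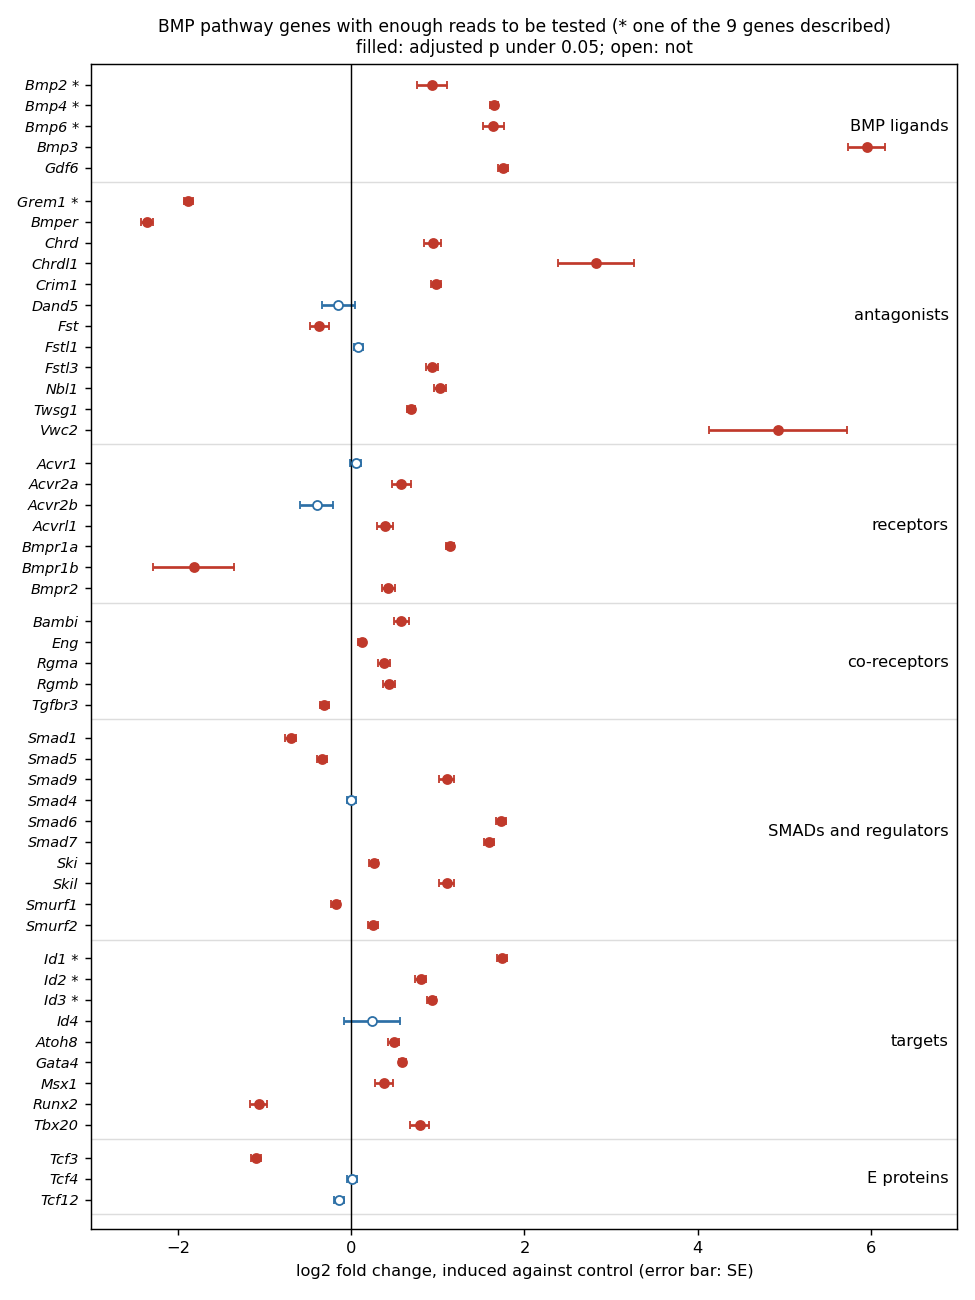
Log2 fold changes, induced against control, with SE, for the tested BMP pathway genes grouped by role; filled red points passed an adjusted p of 0.05 and open blue points did not. Smad6 (1.73) and Smad7 (1.59) lie beside Id1 (1.74), and Grem1 (-1.88) and Bmper (-2.36) are the lowest points.

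Genes of cell division moved with the same contrast. All 8 proliferation genes, Mki67 and Top2a among them, passed lower, with log2 fold changes of -2.39 to -1.39. Among all tested genes 32.2% passed lower. The sum of the 8 went from 862 to 884 CPM in control to 242 to 250 CPM in induced libraries. The changes of the epicardial, cardiomyocyte and osteoblast lists given above ran along the same 2 groups. Their part in the changes of the BMP genes was not tested.

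The genes whose pattern over the 6 libraries was nearest to each of the 7 tested genes were found by the root mean square difference of centred log2 CPM. For Grem1 these were the mesenchymal homeobox gene Prrx1 (difference 0.033) and the chemokine Cxcl12 (0.060), with log2 fold changes of -1.89 and -1.87. For Id1 they were Cystm1 and Fhdc1 (both 0.056), for Id2 Myo1c (0.016) and Gpt2 (0.024), and for Id3 Atraid (0.021) and Lrp5 (0.023). Bmp4 was nearest to Ppip5k1 (0.048) and Pqlc3 (0.050), Bmp6 to Stap2 (0.072) and Tns4 (0.077), and Bmp2 to Lrba (0.051) and Serpinb6b (0.054). None of the 7 was among the 2 nearest genes of another. In a contrast of 2 groups, this measure ranks genes largely by how similar their fold changes are. Shared regulation was not tested.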

How the data were processed

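The table the authors deposited gives each gene a raw count in every library and, beside it, an FPKM value. Per the labels' processing notes, HISAT2 2.0.5, featureCounts 1.5.0-p3, DESeq2 1.16.1 and the build mm10 were used, while the methods of the study name DESeq and fewer replicates per condition than the 3 count columns per group here. The strand setting is not given in the sources used here. The table also holds the fold changes and p-values of the authors, and 2 further tables hold their Gene Ontology enrichment; none of these were used.

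The counts went into edgeR 4.0.16 (R 4.3.3): filterByExpr (minimum count 10, minimum total 15), TMM scaling, and the two-sided quasi-likelihood test of induced against control with Benjamini-Hochberg adjustment over 14246 genes. Fitted values use a prior count of 0.125, and each SE was derived from the F statistic. CPM and RPKM are TMM-scaled, RPKM with the deposited gene length. Exon overlap comes from GENCODE M21 (GRCm38). Named genes were the 9 genes, up to 3 tested genes with the smallest p per pathway list, those with too few reads by their counts, and the 2 nearest patterns (log2 CPM with 0.5 added); other list and marker genes were added after their values were seen. The values of 1 list gene are not reported here. Members and lists were chosen with earlier results of these data known. The test was tested on simulated data, in which far fewer genes changed than passed here. Alternatives were DESeq2 1.42.0, median-ratio factors, library totals, no filter, a stricter filter, leaving out single libraries, a stricter threshold (adjusted p 0.01), a replicate block, and limma 3.58.1 on FPKM after adding 1 or 0.1 and taking log2. The labels name separate samples, not separate cultures, so p-values measure the spread between these libraries, which may be technical.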

Additional observations from a re-analysis of the deposited data

How the results depend on the processing

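All 98 values of the 7 tested genes under the alternatives kept their direction and their side of an adjusted p of 0.05. Of the 9 genes 7 passed under every alternative except DESeq2 and no filter, where Nog made it 8. With 1 library left out at a time, 7 passed each time and 4 to 5 of them changed at least 2-fold, with Bmp2 (1.0) the fifth without control replicate 1. Ratios kept their sign, with ranges over libraries left out of -3.59 to -3.48 for Grem1 to Bmp4, 0.88 to 0.98 for Id1 to Id2, 0.79 to 0.84 for Id1 to Id3 and -0.16 to -0.08 for Id2 to Id3.

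Under limma on log2(FPKM + 1), where the added 1 shrinks the fold changes of low genes, 1032 of all genes and 8 of the pathway genes changed at least 2-fold, against 2438 and 14. Of 574 values of 41 named genes, 3 reversed and 3 gained the threshold. Tcf4 reversed when only library totals were used (-0.03), without control replicate 2 (-0.04) or induced replicate 2 (-0.05), its range with 1 library left out being -0.05 to 0.06, and Tcf12 passed under library totals alone (-0.18), with no filter (-0.14) and without induced replicate 2 (-0.22); the cause was not tested.

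As a check of pairing, the correlations between same-numbered libraries, after subtracting group means, were -0.03, -0.03 and 0.03, so the numbers were not taken to pair the libraries. With the replicate block 9063 genes passed, and 7 of the 7 tested BMP genes. Depth limits Nog, Bmp7 and the 19 pathway genes with too few reads to be tested.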
